A study of Caenorhabditis elegans with 36 samples.

Results

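The comparison described here set 3 RNA-seq libraries of C. elegans labelled xnp-1;gsox-1, the double mutant, against 3 labelled xnp-1, the single mutant. All 6 were made from whole animals labelled L4, the last larval stage before the adult, and were grown at 25 °C from the first larval stage, L1. The members were all genes of the L4 table that passed a filter on low counts, 17492 of 46926, and the 6 libraries were taken from 36 in the whole series. The same table holds 3 libraries labelled gsox-1 and 3 of the wild type N2, which entered the fit and serve below for orientation. The study's design text calls the L4 animals mutants, and the xnp-1 embryos and L1 larvae used further on a knockdown. The alleles of both genes are not given in the sources used here, nor is the number of animals in a pellet. The replicates are labelled biological. The samples are whole animals, so that fewer cells of a type and less RNA per cell cannot be told apart in any result below.

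xnp-1 is the worm orthologue of ATRX, a chromatin remodeller of the SNF2 family that in mammals works with DAXX to place histone H3.3 at repeats and telomeres. The sources used here give no function for gsox-1, and none is assumed. An L4 hermaphrodite makes sperm, grows its gonad and forms its vulva, and then moults. The adult that follows switches its germline to oocytes, produces yolk in the intestine and builds an adult cuticle from another set of collagens. Transcripts of cuticle, moulting and hedgehog-related genes rise and fall within each larval stage, so a few hours of difference in age change their levels.

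Totals ran from 39004451 to 45391494 counts over the 12 L4 libraries. Levels are given as CPM, counts scaled to a common library size by the TMM method, and changes as log2 of double mutant over xnp-1 with the standard error (SE) of the edgeR fit. A gene was called where its Benjamini-Hochberg adjusted p in edgeR's quasi-likelihood F test was under 0.05 over all 17492 genes. The first principal component of the 12 libraries held 62% of the variance. It set the 3 xnp-1 libraries, at 143.8 to 173.5, apart from the other 9, at -74.4 to -40.4. The double mutant libraries lay at -55.6, -41.7 and -40.4, and those labelled gsox-1 and N2 at -74.4 to -46.3. Replicate 1 of the double mutant was within that range, and replicates 2 and 3 lay just outside it, on the side of xnp-1. Replicate 1 of the double mutant stood apart on the second component, at 104.8 against 10.6 and 4.62 for replicates 2 and 3. Its correlation over log2 CPM was 0.951 and 0.945 with the other replicates of its group, whose own correlation was 0.982. The same library had 0.957 with N2 replicate 1. Values without this library are given where a call on a named gene changes or a count or change moves by over 1.5 times.

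The labelled genes were read first. xnp-1 (WBGene00006961, chromosome I, 4665933 to 4671738, coordinates as in the deposited table) had 22.1, 28.7 and 37.3 CPM in the double mutant libraries and 39.5, 48.2 and 50.3 CPM in the xnp-1 libraries. All 3 double mutant libraries were below all 3 xnp-1 libraries. The means were 29.3 ± 7.64 and 46.01 ± 5.73 CPM (SD, n = 3 each), with a log2 change of -0.65 (SE 0.21, edgeR adjusted p = 0.0235). N2 averaged 75.5 CPM, and the gene was called lower than N2 in both groups. Its transcript was still present in both. The call on xnp-1 was lost without double mutant replicate 1 (-0.48, edgeR adjusted p = 0.0579) or replicate 2, and without xnp-1 replicate 2 or replicate 3 (-0.58, edgeR adjusted p = 0.0872).

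gsox-1 (WBGene00009365, chromosome II, 10174648 to 10180040) had 47.05, 68.1 and 96.2 CPM in the double mutant and 150, 159 and 179 CPM in xnp-1. The groups did not overlap. The double mutant averaged 70.5 ± 24.7 CPM and xnp-1 163 ± 14.9 CPM (SD, n = 3 each), a log2 change of -1.21 (SE 0.25, edgeR adjusted p = 0.00217). Against N2, at 56.9 CPM, the double mutant was not called, while the xnp-1 libraries were called higher. The libraries labelled gsox-1 held 78.5 CPM. gsox-1 transcript was measured in every library whose label names gsox-1. Since the allele is not given, its level is no check of the label, and the groups are named by their labels throughout. The interaction term, which asks whether the difference of double mutant and xnp-1 equals that of gsox-1 and N2, was -1.67 (SE 0.35, edgeR adjusted p = 0.00407) for gsox-1. For xnp-1 the term was -0.94 (SE 0.29, edgeR adjusted p = 0.0278).

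**Figure D1:**
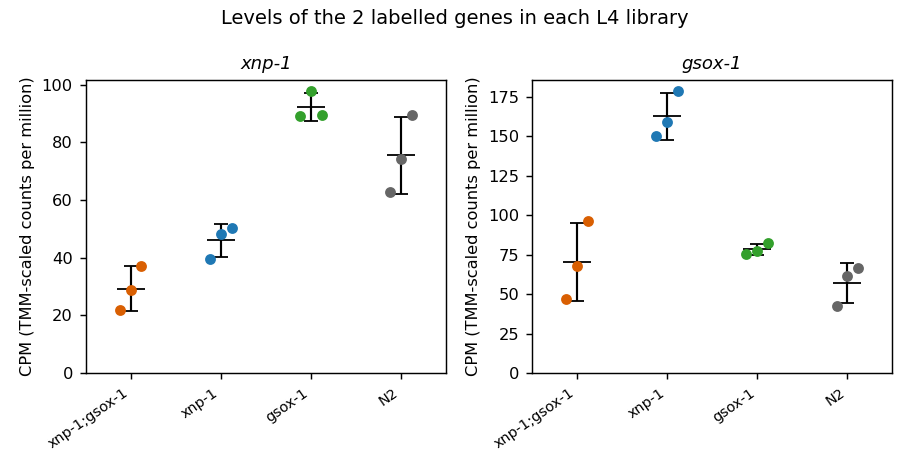
CPM of xnp-1 (left) and gsox-1 (right) in each L4 library, as points, with the mean and SD of 3 libraries in black. For both genes the 3 double mutant libraries lie below the 3 xnp-1 libraries, and gsox-1 is at 47.05 to 96.2 CPM in the double mutant against 150 to 179 CPM in xnp-1.

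Across all genes the groups differed widely. Of the 17492 genes tested, 7731 (44.2%) were called, with 3896 higher (22.3%) and 3835 lower (21.9%) in the double mutant. The median change over all genes was 0.09 on the log2 scale. Changes of at least 2-fold were called for 2983 higher genes (17.1%) and 2691 lower genes (15.4%). The largest changes were falls: 459 called genes fell at least 16-fold and 250 at least 64-fold, while 228 and 24 rose as much. The libraries of the groups did not overlap for 9887 genes (56.5%). Without double mutant replicate 1, 3569 genes were called higher and 3940 lower. Among genes at zero, 105 tested genes had no count in any double mutant library and 45 had none in any xnp-1 library.

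**Figure D2:**
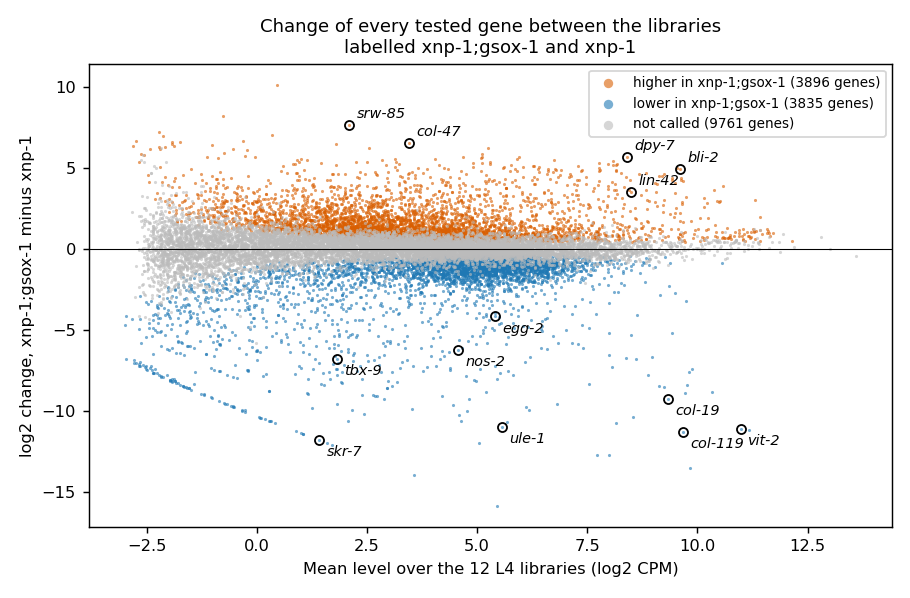
Each point is 1 of the 17492 genes tested, by its mean level over the 12 L4 libraries (log2 CPM, horizontal) and its log2 change of double mutant minus xnp-1 (vertical), coloured by call. Genes circled and named are described in the text; the falls reach further than the rises, and the slanting edge at lower left is formed by genes without a count in any double mutant library, whose fitted change depends on the prior count.

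Some of the deepest falls were in yolk genes, and genes of egg production fell as well. All 6 vitellogenin genes, which encode the yolk proteins that the adult intestine makes for oocytes, fell. vit-2 (chromosome X, 5101042 to 5106169) had 2.37, 5.29 and 3.13 CPM in the double mutant and 5382, 8156 and 10290 CPM in xnp-1, a log2 change of -11.11 (SE 1.29, edgeR adjusted p = 4.88e-05). vit-6, on chromosome IV, had 1.43, 7.08 and 3.23 CPM in the double mutant and 6428, 9322 and 11270 CPM in xnp-1 (-11.17, SE 1.503). The 6 genes together summed to 7.79 to 21.0 CPM in double mutant libraries and 17340 to 30620 CPM in xnp-1 libraries. N2 libraries summed to 56.1 to 582.6 CPM. Every double mutant library was thus below every N2 library too, and vit-2 and vit-1 were also called lower than in N2. vit-3, vit-4 and vit-5 are near-identical copies, so how reads were divided among them is uncertain. Their changes were -12.69, -12.70 and -13.50, and -13.47 for vit-3 without double mutant replicate 1.

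All 15 eggshell genes tested fell, with a median of -4.33. egg-2, a receptor-like protein of the oocyte surface that fertilization needs, had 7.12, 8.33 and 9.03 CPM in the double mutant and 155, 128 and 155 CPM in xnp-1. Its change was -4.16 (SE 0.17, edgeR adjusted p = 1.52e-07), and the N2 mean of 8.13 CPM lay within the double mutant range. The pseudophosphatase genes egg-3 (-3.95) and egg-5 (-4.02) and gna-2 (-3.34), whose product supplies the sugar for the chitin layer, moved alike. The 5 uterine lumen ule genes, named for proteins found in the uterus, fell as well. ule-1 had 0.0448, 0 and 0.241 CPM in double mutant libraries and 212, 157 and 198 CPM in xnp-1 libraries. No list of this section had a member called higher.

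Of 20 oocyte and maternal RNA-binding genes, 18 fell (90%, against 21.9% of all genes) and none rose, with a median of -3.89. pos-1, a zinc-finger protein that controls maternal mRNAs in the early embryo, had 5.67, 9.33 and 8.24 CPM in the double mutant and 451, 364 and 481 CPM in xnp-1 (-5.80, SE 0.41, edgeR adjusted p = 2.37e-06). nos-2, a Nanos protein of the embryonic germline, averaged 1.22 ± 0.47 CPM in the double mutant and 91.8 ± 5.68 CPM in xnp-1 (SD, n = 3 each). spn-4 and puf-11, which encode RNA-binding proteins of oocytes and embryos, changed by -3.98 and -4.36. The markers of growing oocytes oma-1, a regulator of oocyte maturation, and rme-2, the yolk receptor, stood at 16.8 and 23.4 CPM in the double mutant and at 230 and 595 CPM in xnp-1. The summed level of the 20 genes was 430.7 to 1109 CPM in the double mutant, 6181 to 7391 CPM in xnp-1 and 458.6 to 890.4 CPM in N2.

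**Figure D3:**
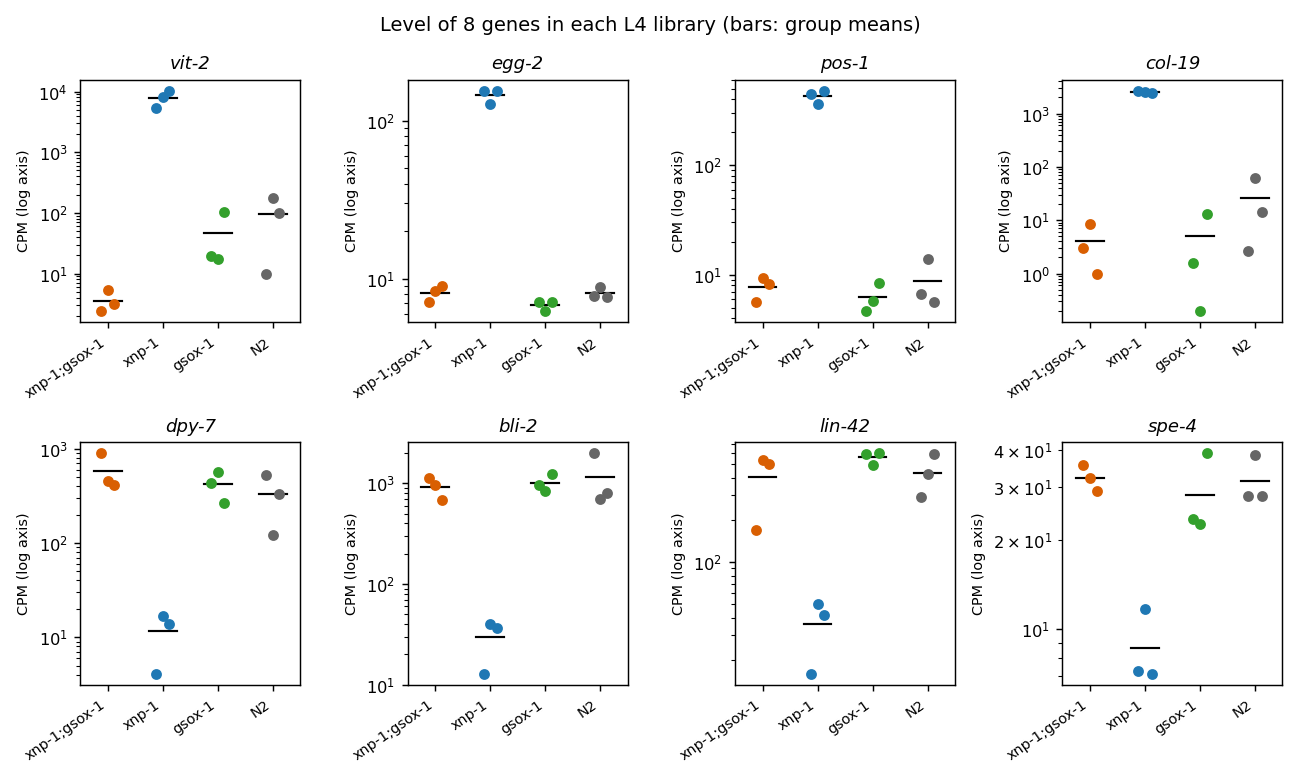
CPM on a log axis of 8 genes in each L4 library (points, with group means as bars), in the order xnp-1;gsox-1, xnp-1, gsox-1, N2. For vit-2, egg-2, pos-1 and col-19 the xnp-1 libraries lie above all others, and for dpy-7, bli-2, lin-42 and spe-4 they lie below all others; lin-42 in double mutant replicate 1, at 170 CPM, is under the other replicates, at 538 and 502 CPM.

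Most listed genes that work throughout the germline were also lower. Of 28 meiosis genes, 26 fell (92.9%, against 21.9% of all genes) and none rose, with a median of -1.23. spo-11, the enzyme that makes the DNA breaks of meiosis, had 17.5, 17.5 and 13.7 CPM in the double mutant and 62.7, 48.4 and 48.4 CPM in xnp-1 (-1.71, SE 0.18, edgeR adjusted p = 2.9e-05). zim-2, a zinc-finger protein that pairs chromosome V, changed by -2.05, the break-formation gene dsb-1 by -1.62 and the crossover gene zhp-3 by -1.48. Among 21 P granule and germ plasm genes 19 fell (90.5%) and none rose, with a median of -2.0. P granules are RNA and protein condensates of germ cells. meg-3, which assembles them in the embryo, averaged 3.48 ± 1.32 CPM in the double mutant and 56.4 ± 6.38 CPM in xnp-1 (SD, n = 3 each). mip-2 (-2.02), glh-3 (-1.70), a helicase of the granules, and pgl-1 (-0.91), a scaffold, were also lower. For the germline marker glh-1 the groups overlapped, with 502, 720 and 698 CPM in the double mutant and 651, 752 and 722 CPM in xnp-1.

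Regulators of germline stem cells and their differentiation fell in 12 of 15 cases (80%), with none higher and a median of -1.47. mex-3, an RNA-binding protein of oocytes and stem cells, changed by -3.81, the poly(A) polymerase cofactor genes gld-3 and rnp-8 by -2.75 and -2.47, and the stem cell gene sygl-1 by -2.17. All 4 had their lowest level in double mutant replicate 1, at 11.1 CPM for mex-3 against 28.3 and 31.4 CPM in replicates 2 and 3, and 323, 306 and 364 CPM in xnp-1. Without that replicate 10 of the 15 were called lower. Of 13 genes of sex determination 6 fell (46.2%) and 1 rose (7.69%), against 21.9% and 22.3% of all genes. fem-3, which directs germ cells to sperm, averaged 9.85 CPM in the double mutant and 60.3 CPM in xnp-1 (-2.61), and fog-2 changed by -1.52. The male tail and yolk regulator mab-3 was the one that rose, to 11.4 CPM in the double mutant against 1.26 CPM in xnp-1 (3.17, SE 0.39).

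Nuclear genes with high expression in the germline moved the same way. DNA damage and repair genes fell in 31 of 34 cases (91.2%, against 21.9% of all genes), with none higher and a median of -1.12. mre-11, of the complex that trims broken ends, had 24.8, 37.8 and 39.02 CPM in the double mutant and 97.8, 102 and 109 CPM in xnp-1 (-1.60, SE 0.18, edgeR adjusted p = 3.89e-05). The nuclease genes slx-1 and xpf-1 changed by -1.68 and -1.35, and brc-2, the BRCA2 orthologue, by -1.198. Genes of the DREAM complex and the synMuv B class repress germline genes in somatic cells. Of 18 such genes 15 fell (83.3%) and none rose (median -1.17). lin-54, the DNA-binding subunit of DREAM, had 16.8, 25.6 and 25.5 CPM in the double mutant and 87.04, 78.99 and 87.2 CPM in xnp-1. The E2F and DP genes efl-1 and dpl-1 changed by -1.68 and -1.62 and lin-37 by -1.56. The double mutant was not called against N2 for any of these 4 genes, and N2 averaged 22.5 CPM for lin-54 and 28.1 CPM for dpl-1.

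Heterochromatin factor genes fell in 16 of 21 cases (76.2%, against 21.9% of all genes) and 1 rose (median -1.04). Among them were cec-3 (-1.19) and cec-4 (-1.06), chromodomain proteins that bind methylated histone H3 lysine 9, spr-5 (-1.12), a histone demethylase, and arle-14 (-1.56). Histone H3.3 and its chaperones split. hira-1, the HIRA chaperone, averaged 30.6 ± 7.13 CPM in the double mutant and 75.1 ± 4.68 CPM in xnp-1 (-1.296), and asfl-1, an ASF1 chaperone, 11.4 ± 1.03 and 49.3 ± 3.07 CPM (-2.12; SD, n = 3 each). The H3.3 gene his-71 had 37.0, 65.3 and 62.2 CPM in the double mutant and 27.1, 27.6 and 27.8 CPM in xnp-1 (1.00, SE 0.20, edgeR adjusted p = 0.00166). his-70, a related histone gene, had 37.1, 27.9 and 21.2 CPM in the double mutant and 2.13, 3.398 and 2.92 CPM in xnp-1 (3.35, SE 0.28). Argonaute and small RNA pathway genes fell in 38 of 57 cases (66.7%) and 2 rose, with a median of -0.90. The Argonaute alg-5 had 7.48, 14.1 and 17.6 CPM in the double mutant and 90.6, 97.6 and 106 CPM in xnp-1 (-2.91, SE 0.31). mut-2, a nucleotidyltransferase of the mutator pathway, changed by -1.96, eri-9 by -1.90 and the piRNA gene tofu-5 by -1.36.

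Some genes that are switched on in the early embryo were lower in the double mutant. The list of early zygotic genes has 68 members, of which 35 passed the count filter, so those counted are the ones with counts in some group. Of these, 19 fell (54.3%) and 5 rose (14.3%), against 21.9% and 22.3% of all genes, and 11 were not called. Without xnp-1 replicate 2 or replicate 3, 3 rose. The list summed to 189.3 to 254.8 CPM in the double mutant, 282.7 to 325.2 CPM in xnp-1 and 191.4 to 222.5 CPM in N2. tbx-9, a T-box factor of embryonic muscle and skin, had 0.179, 0.0437 and 0.144 CPM in the double mutant and 15.1, 10.8 and 15.5 CPM in xnp-1 (-6.79, SE 0.80, edgeR adjusted p = 5.42e-05). vet-1 averaged 0.0911 CPM in the double mutant and 5.06 CPM in xnp-1, and tbx-33 0.106 and 5.28 CPM. pal-1, the Caudal homeobox gene, whose maternal mRNA is stored in oocytes, changed by -3.23. pes-10, a marker of the first embryonic transcription, averaged 0.00746 CPM in the double mutant and 0.775 CPM in xnp-1 (-6.20, and -8.01 without double mutant replicate 1). The endoderm genes end-1 and end-3 did not pass the filter and reached at most 0.306 CPM in any of the 6 libraries for end-3 and 0.445 CPM for end-1.

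The Skp1-related skr genes, adaptors of ubiquitin ligases, fell in 10 of 19 tested cases (52.6%, against 21.9% of all genes) with none higher. Genes of this family are similar to each other, and reads could be shared between the closest copies. skr-7 had no count in the double mutant and 11.7, 9.46 and 10.1 CPM in xnp-1, which is at least 459-fold lower (floor: 3 counts summed over the libraries of the group). skr-15 and skr-14 had no count either, and were at least 317-fold and 179-fold lower. No N2 library held a count of these 3 genes. btb-6 and clec-97 were at zero in all double mutant libraries, at least 356-fold and 351-fold lower than in xnp-1. For sea-1, a T-box factor that reads the X to autosome ratio, the double mutant held 1 count in all and xnp-1 2056, a ratio of 2200 with an exact 95% counting interval of 394 to 86700. spex-3 had 2 counts in the double mutant and 2615 in xnp-1. These floors and intervals cover counting error only. The pals genes are a family of the response to intracellular pathogens. Of 30 tested, 16 fell (53.3%) and 5 rose (16.7%), against 21.9% and 22.3% of all genes. Among those that fell were pals-33 (-4.35) and pals-14 (-3.36). Without double mutant replicate 3 or any 1 of the xnp-1 libraries, 3 pals genes rose. The C-type lectin genes clec-87 and clec-88 changed by -6.12 and -4.87.

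Collagen genes divided by type. Over the 139 col genes tested 43 rose (30.9%) and 32 fell (23%), each by at least 2-fold. Of all genes 22.3% were called higher and 21.9% lower, and 17.1% and 15.4% by at least 2-fold. The list of 4 adult cuticle genes went both ways, with col-19 and col-7 lower and bli-1 and bli-2, described below, higher. col-19, the usual marker of the adult cuticle, had 3.04, 8.30 and 0.988 CPM in the double mutant and 2670, 2486 and 2442 CPM in xnp-1 (-9.26, SE 1.69, edgeR adjusted p = 0.00101). N2 averaged 26.1 CPM. col-119 had 0.873, 2.69 and 0.337 CPM in the double mutant and 3360, 3121 and 3290 CPM in xnp-1 (-11.28, SE 1.75). col-143 (-10.73), col-8 (-10.36), col-95 (-10.25) and col-101 (-7.30) were lower as well, and without double mutant replicate 1 col-143, col-8 and col-95 stood at -11.55, -10.97 and -10.94. The summed level of the col genes was 19910 to 23580 CPM in the double mutant and 52630 to 57460 CPM in xnp-1. N2 libraries summed to 34630, 56460 and 31850 CPM, above every double mutant library and up to the xnp-1 range. Yolk genes, oocyte genes and col-19 were thus high in the libraries labelled xnp-1 L4. Summed yolk and eggshell levels were 17340 to 30620 and 6426 to 7871 CPM there, against 7.79 to 21.0 and 208.2 to 454 CPM in the double mutant. A difference of the animals in stage or age at harvest and a difference by genotype cannot be told apart with these libraries.

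In contrast, the 6 furrow collagen genes, whose products form the ring-shaped folds of the cuticle, all rose. dpy-7 (chromosome X, 7536467 to 7537792) had 891, 453 and 409 CPM in the double mutant and 4.05, 16.8 and 13.8 CPM in xnp-1 (5.66, SE 0.70, edgeR adjusted p = 7.46e-05). dpy-10 had 270, 273 and 228 CPM in the double mutant and 2.99, 11.1 and 7.88 CPM in xnp-1 (5.13, SE 0.57). dpy-2 (5.25), dpy-3 (5.30), dpy-8 (4.88) and dpy-9 (5.20) changed by similar amounts. The 6 genes summed to 2151 to 3251 CPM in the double mutant, 25.5 to 100.3 CPM in xnp-1 and 588.6 to 2028 CPM in N2. Of 15 body-shape and blister collagens 12 rose (80%, against 22.3% of all genes) and none fell (median 3.88). bli-2, a collagen of the struts of the adult cuticle that is made before the last moult, had 1131, 953 and 679 CPM in the double mutant and 12.7, 40.3 and 36.9 CPM in xnp-1 (4.94, SE 0.54, edgeR adjusted p = 3.21e-05). bli-1, its partner in the struts, changed by 4.38 and had 327 CPM in double mutant replicate 1 against 1069 and 1049 CPM in replicates 2 and 3. rol-6 (4.07), sqt-2 (4.22) and lon-3 (4.62) rose as well. In xnp-1, replicate 1 was the lowest library for each collagen named in this paragraph.

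Genes of moulting rose in 26 of 34 cases (76.5%, against 22.3% of all genes) and 1 fell, with a median of 2.31. With replicate number as a block, and without double mutant replicate 3, the moulting genes that fell were 3. mlt-8 had 294, 387 and 335 CPM in the double mutant and 11.2, 32.8 and 28.1 CPM in xnp-1 (3.82, SE 0.37, edgeR adjusted p = 1.57e-05). acn-1, an ACE-like protein needed for moulting, changed by 3.66 and the lipocalin gene lpr-1 by 5.33. Cuticlin genes, which encode insoluble proteins of the cuticle, rose in 20 of 34 cases (58.8%) and none fell. By DESeq2, without xnp-1 replicate 2, and in the fit of only the 6 libraries with and without the block, 1 was called lower. cutl-28 had 34.1, 34.9 and 34.7 CPM in the double mutant and 1.06, 1.72 and 1.36 CPM in xnp-1 (4.64, SE 0.29), and cut-6 changed by 3.82. Hedgehog-related and patched-related genes are a large group of secreted and membrane proteins of the skin. Of 72 tested, 33 rose (45.8%) and 6 fell (8.33%), against 22.3% and 21.9% of all genes. With replicate number as a block 10 fell. Without xnp-1 replicate 1, and likewise without xnp-1 replicate 3, 3 fell. wrt-10 had 569, 426 and 467 CPM in the double mutant and 3.51, 17.5 and 13.2 CPM in xnp-1 (5.42, SE 0.66), wrt-1 changed by 4.85 and ptr-4 by 4.21.

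Of the 16 heterochronic genes, which time larval development, 3 rose and 3 fell, each 18.8%, near the 22.3% and 21.9% of all genes. With replicate number as a block 5 fell, and without double mutant replicate 3 the number was also 5. lin-42, the Period homologue that cycles with the moults, had 170, 538 and 502 CPM in the double mutant and 15.8, 49.8 and 42.1 CPM in xnp-1 (3.49, SE 0.51, edgeR adjusted p = 0.000222). lin-29, the zinc-finger factor of the change from larva to adult, and its cofactor mab-10 rose by 1.68 and 2.07. lin-41, a TRIM protein that acts on lin-29 and in oocytes, averaged 29.5 ± 21.3 CPM in the double mutant and 299 ± 60.9 CPM in xnp-1 (-3.34; SD, n = 3 each). In the vulva and uterus list, the FGF gene egl-17 (1.49) and the Pax gene egl-38 (1.76) rose and the EGF gene lin-3 (-1.65) fell. Of its 18 genes 6 were higher (33.3%) and 1 lower (5.56%), against 22.3% and 21.9% of all genes. Without double mutant replicate 1, 9 were higher.

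The remaining genes with the largest rises belonged to several families. srw-85, of a family of predicted chemoreceptors, had 10.3, 8.37 and 12.4 CPM in the double mutant and 0, 0.0985 and 0.0471 CPM in xnp-1 (7.65, SE 0.65, edgeR adjusted p = 6.93e-06). It was also above N2, at 0.453 CPM, and the libraries labelled gsox-1 averaged 6.01 CPM. The collagen genes col-46 and col-47 changed by 5.31 and 6.54. gtnt-17 and gtnt-18 averaged 36.2 and 40.9 CPM in the double mutant and 0.721 and 0.711 CPM in xnp-1. nhr-234, a nuclear receptor gene, srf-5 and spi-1 rose by 5.19, 5.48 and 5.19. The insulin-like gene ins-35 had 56.5, 42.2 and 33.5 CPM in the double mutant and 1.33, 2.96 and 2.42 CPM in xnp-1 (4.30, SE 0.39), and N2 averaged 12.5 CPM. Of 31 insulin-like genes tested 12 rose (38.7%) and 3 fell (9.68%), against 22.3% and 21.9% of all genes. Without xnp-1 replicate 1, 6 rose and 1 fell; 1 fell also without double mutant replicate 2 or 3 and without xnp-1 replicate 2 or 3.

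**Figure D4:**
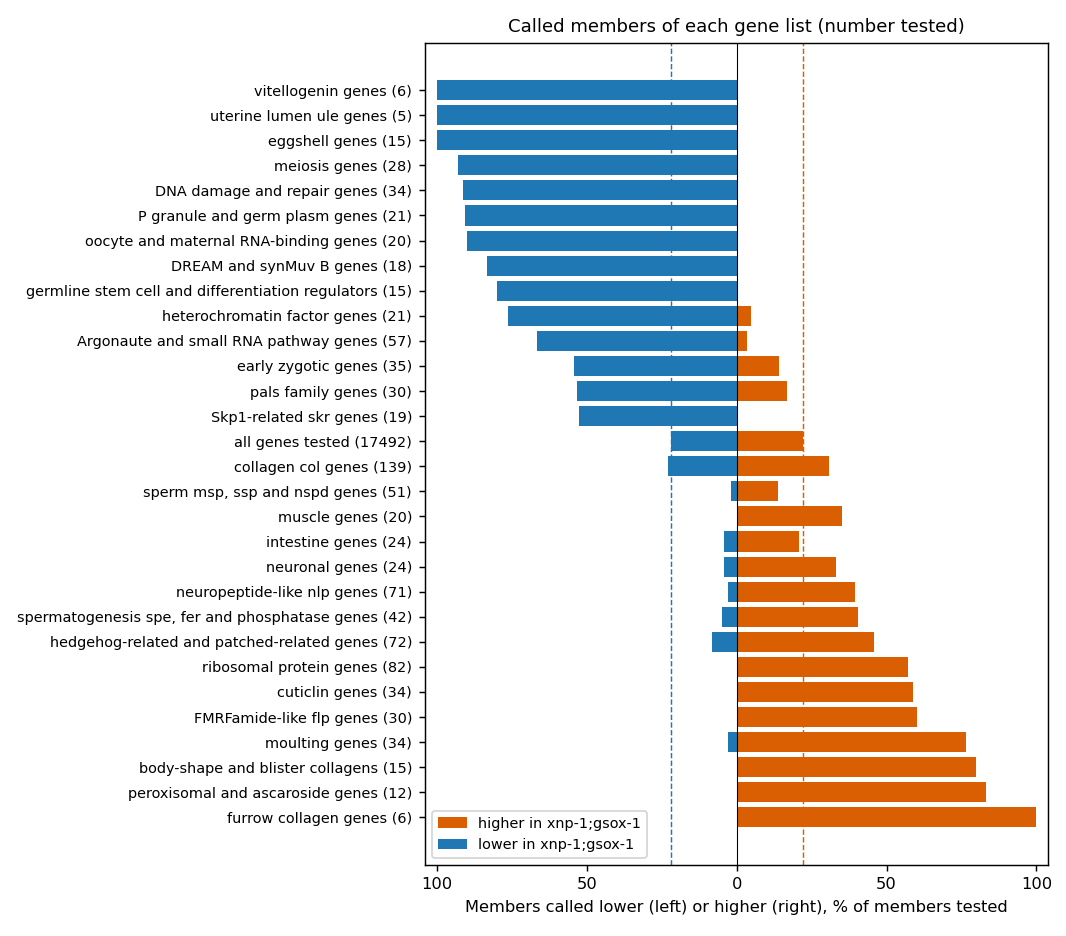
Share of the tested members of each gene list that were called lower (to the left, blue) or higher (to the right, orange) in the double mutant than in xnp-1, with the number tested in brackets. The dashed lines mark the shares over all genes tested, 21.9% lower and 22.3% higher; the yolk, eggshell and germline lists extend to the left and the furrow collagen, moulting and cuticlin lists to the right.

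Sperm genes did not follow the oocyte genes. Of 42 spermatogenesis genes 17 rose (40.5%) and 2 fell (4.76%), against 22.3% and 21.9% of all genes, with a median of 0.70. spe-4, a presenilin needed in spermatocytes, had 35.6, 32.2 and 29.02 CPM in the double mutant and 7.27, 11.7 and 7.08 CPM in xnp-1 (1.90, SE 0.27, edgeR adjusted p = 0.000195). The sperm membrane genes spe-42 and spe-49, needed for fertilization, rose by 2.16 and 2.10. spe-39, a vesicle gene that other tissues use as well, was one of those that fell (-1.55). The abundant major sperm protein and related genes, whose copies are near-identical, mostly missed the threshold. Of 51 tested 7 rose and 1 fell, a share of 15.7% called, against 44.2% of all genes. That share depended on the fit: 14 rose and 8 fell with the replicate block in a fit of only the 6 libraries, 3 fell with the block over all 12, 5 fell in the fit of 6 without it, and 4 fell without gsox-1 replicate 3 (2 without gsox-1 replicate 2). Their summed level was 1795 to 2307 CPM in the double mutant and 1791 to 2134 CPM in xnp-1. Without xnp-1 replicate 1 or without xnp-1 replicate 3, 4 of them rose. gsp-3, a sperm phosphatase gene, averaged 38.8 CPM in the double mutant and 23.8 CPM in xnp-1 and was not called (0.70, edgeR adjusted p = 0.194). Without double mutant replicate 1 it was called (1.03, edgeR adjusted p = 0.0478).

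Lists of somatic tissue genes are read against the 22.3% of all genes called higher and 21.9% called lower. Among 24 intestine genes 5 rose (20.8%, near the share of all genes) and 1 fell. Among 20 muscle genes 7 rose (35%) and none fell, and among 24 neuronal genes 8 rose (33.3%) and 1 fell. ges-1, a gut esterase, had 66.2, 58.6 and 58.3 CPM in the double mutant and 25.9, 25.4 and 25.4 CPM in xnp-1 (1.26, SE 0.14, edgeR adjusted p = 4.15e-05), and elt-2, the gut GATA factor, changed by 0.62. Of the muscle genes, tni-1, a troponin I, changed by 1.77, the myosin light chain gene mlc-2 by 1.04 and the troponin T gene mup-2 by 0.93. The median of the 20 muscle genes was 0.175, against 0.09 over all genes. For the body wall muscle markers unc-54 and myo-3 the groups overlapped. unc-54 had 995, 3640 and 4180 CPM in the double mutant and 2410, 3900 and 3520 CPM in xnp-1. myo-3 had 136, 387 and 433 CPM in the double mutant and 200, 286 and 263 CPM in xnp-1. ric-4 and unc-64, both of the synaptic fusion machinery, changed by 0.94 and 0.72. Without xnp-1 replicate 1, and also without xnp-1 replicate 3, 5 neuronal genes were called higher. Intestine genes called higher were 3 without any 1 of the xnp-1 libraries, and those called lower were 2 without double mutant replicate 1 or 3 and 0 without xnp-1 replicate 1. FMRFamide-like flp genes rose in 18 of 30 cases (60%) and other neuropeptide nlp genes in 28 of 71 (39.4%), with 2 nlp genes lower. flp-9 had 56.5, 57.5 and 50.97 CPM in the double mutant and 36.5, 35.97 and 29.7 CPM in xnp-1 (0.69). nlp-30 and nlp-31, antimicrobial peptides of the skin, rose by 2.25 and 1.90. These counts depended on the xnp-1 libraries: 10 and 6 flp genes were called without xnp-1 replicate 2 and replicate 3. For nlp genes the numbers were 17, 15 and 12 without xnp-1 replicates 1, 2 and 3.

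Ribosomal protein genes rose in 47 of 82 cases (57.3%, against 22.3% of all genes) and none fell, with a median of 0.60. rpl-19 had 2704, 3014 and 2471 CPM in the double mutant and 1542, 1484 and 1582 CPM in xnp-1 (0.83, SE 0.17, edgeR adjusted p = 0.00208). Together the 82 genes took 151700 to 194000 CPM in the double mutant and 105700 to 111500 CPM in xnp-1. The count was 22 and 21 without xnp-1 replicate 2 and replicate 3, although the groups' summed levels did not overlap. It was 68 without double mutant replicate 1. Without the double mutant and N2 libraries numbered 1, a setting chosen after seeing the data, the count was 79. In a fit of only the 6 libraries with the replicate block, 29 rose. Peroxisomal genes of beta-oxidation, which shorten the side chains of ascaroside pheromones, rose in 10 of 12 cases (83.3%). acox-1.2, an acyl-CoA oxidase, had 111, 80.9 and 84.8 CPM in the double mutant and 11.8, 13.9 and 14.1 CPM in xnp-1 (2.79, SE 0.23, edgeR adjusted p = 5.34e-06), and dhs-28 changed by 1.01. Flavin monooxygenase genes rose in 3 of 5 cases (60%), fmo-3 (1.97), fmo-4 (1.04) and fmo-5 (0.62). Of 56 oxidative stress genes 17 rose (30.4%) and 6 fell (10.7%), against 22.3% and 21.9% of all genes. msra-1, a methionine sulfoxide reductase, had 1483, 612 and 594 CPM in the double mutant and 144, 204 and 198 CPM in xnp-1 (2.30, SE 0.37). The 6 falls were 2, 3, 2 and 1 without double mutant replicate 2 and without xnp-1 replicates 1, 2 and 3, in that order. Heat shock genes showed no common direction, with 2 of 23 higher (8.7%) and 3 lower (13%), against 22.3% and 21.9% of all genes. With replicate number as a block 5 were lower, and 6 without double mutant replicate 1. hsp-17 and hsp-12.1 rose by 1.29 and 2.56 (1.95 for hsp-12.1 without double mutant replicate 1), while hsp-43 and the heat shock factor gene hsf-1 changed by -2.54 and -1.47.

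By chromosome, the share of tested genes called higher ran between 20.0% on chromosome III and 24.8% on X among the nuclear chromosomes, and the share called lower between 14.8% on X and 28.1% on I. Of 2492 genes tested on X 618 rose and 368 fell, and of 2737 on I 551 rose and 769 fell. On the mitochondrial genome 4 of 14 genes were called higher (28.6%, against 22.3% of all genes) and none lower. With replicate number as a block 7 were higher. That count rested on single libraries: without double mutant replicate 1 none was higher and 2 were lower, and without xnp-1 replicate 2 or replicate 3 none was called higher.

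A separate set of genes came from libraries of another stage. In embryos and L1 larvae labelled xnp1, 49 genes were called higher than in N2 at both stages. Those libraries came from animals kept at 20 °C, against 25 °C for the L4 animals, were described as a knockdown, and were sequenced at another centre and counted in another table. Of these 47 were tested at L4. In the double mutant 23 of them were lower than in xnp-1 (48.9%, against 21.9% of all genes) and 2 were higher, with a median of -0.75. For 27 the change was under 2-fold in either direction. Side by side, the same 47 had a median of 0.64 in the double mutant against N2, with 9 called higher, and of 1.65 in xnp-1 against N2, with 41 called higher. These comparisons share libraries, and their values are given as they stand.

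Among those that fell was cpar-1, a centromeric histone paralogue of CENP-A, with 6.96, 2.71 and 3.28 CPM in the double mutant and 37.7, 29.2 and 32.2 CPM in xnp-1 (-2.94, SE 0.38, edgeR adjusted p = 0.000101). N2 averaged 2.72 CPM. C48B4.11 had 12.9, 17.5 and 18.04 CPM in the double mutant and 113, 108 and 92.2 CPM in xnp-1 (-2.69, SE 0.17, edgeR adjusted p = 1.14e-06), with 17.8 CPM in N2. C48B4.10, also on chromosome III, changed by -1.16. rnh-1.3, an RNase H gene, had 5.55, 8.87 and 7.61 CPM in the double mutant and 34.0, 27.01 and 27.3 CPM in xnp-1 (-2.003, SE 0.36). R06F6.12 (-1.99) and zhp-2 (-1.62), a RING protein of the meiotic chromosome axis, fell as well. For each of these the double mutant was not called against N2.

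Other genes of the set, described next, changed by under 2-fold between the double mutant and xnp-1. They were chosen for naming after their values were seen. snpc-1.2 had 107, 89.5 and 106 CPM in the double mutant and 144, 142 and 139 CPM in xnp-1, against 30.7 CPM in N2. Its change from xnp-1 was -0.49 (SE 0.14, edgeR adjusted p = 0.0162). That call was lost without double mutant replicate 2 (-0.41, edgeR adjusted p = 0.0645) and without xnp-1 replicate 1 (-0.48, edgeR adjusted p = 0.0515). It was lost also in a fit of only the 6 libraries, both without the replicate block (-0.49, edgeR adjusted p = 0.0699) and with it. With no filter the call was lost as well (-0.48, edgeR adjusted p = 0.0845). Against N2 snpc-1.2 was called higher in the double mutant (edgeR adjusted p = 0.000439). sdha-2, a germline paralogue of a succinate dehydrogenase subunit, had 204, 223 and 220 CPM in the double mutant, 267, 264 and 270 CPM in xnp-1 and 78.7 CPM on average in N2. The difference from xnp-1 was not called (-0.31, SE 0.14, edgeR adjusted p = 0.0947), although the libraries did not overlap. It was called by DESeq2 (-0.38, adjusted p = 0.00572) and without both libraries numbered 1 (-0.27, edgeR adjusted p = 0.0453), a setting chosen after seeing the data. The difference of sdha-2 from N2 was called (edgeR adjusted p = 0.00116). F15D4.5 had 68.8, 160 and 154 CPM in the double mutant and 127, 156 and 136 CPM in xnp-1, against 15.96 CPM in N2, and its groups overlapped (-0.13, SE 0.28). Without double mutant replicate 1 its change was 0.17. prg-1, the PIWI Argonaute that binds piRNAs, averaged 427 ± 132 CPM in the double mutant and 553 ± 68.8 CPM in xnp-1 (SD, n = 3 each) and was not called from xnp-1 (-0.37, SE 0.27, edgeR adjusted p = 0.283). Against N2, at 154, 285 and 258 CPM, prg-1 was not called in the double mutant either (0.88, edgeR adjusted p = 0.170). nrde-2, of nuclear RNA interference, had 172, 185 and 264 CPM in the double mutant and 270, 281 and 303 CPM in xnp-1. N2 held 114, 155 and 162.5 CPM, and the double mutant was not called against it (0.53, edgeR adjusted p = 0.271). From xnp-1 nrde-2 was not called (-0.46, edgeR adjusted p = 0.0813). It was called lower with replicate number as a block (-0.48, edgeR adjusted p = 0.0399), by DESeq2 (-0.53, adjusted p = 0.0244), with RLE size factors (-0.53, edgeR adjusted p = 0.0469) and without double mutant replicate 3 (-0.70, edgeR adjusted p = 0.0112).

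The 2 genes called higher were set-31, named as a SET-domain gene, with 179, 116 and 134 CPM in the double mutant and 96.5, 102 and 94.5 CPM in xnp-1 (0.55, edgeR adjusted p = 0.049), and abt-5, an ABC transporter gene (1.27, edgeR adjusted p = 0.0371). The call on set-31 was lost when any 1 of 9 of the 12 libraries was left out, among them double mutant replicates 1 and 3 and all xnp-1 replicates. With all 12 libraries set-31 was not called by DESeq2 (adjusted p = 0.0719), with RLE size factors (edgeR adjusted p = 0.0825) or with no filter (edgeR adjusted p = 0.0791). In the fit of only the 6 libraries it was not called either (edgeR adjusted p = 0.0765). The call on abt-5 was lost without double mutant replicates 2 or 3 and without xnp-1 replicates 1 or 3. wago-4, an Argonaute of inherited silencing and also named after its values were seen, was called lower (-1.05, edgeR adjusted p = 0.0304). Its call was lost without double mutant replicate 1 (-0.76, edgeR adjusted p = 0.0821) or replicate 2 and without xnp-1 replicates 2 or 3.

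**Figure D5:**
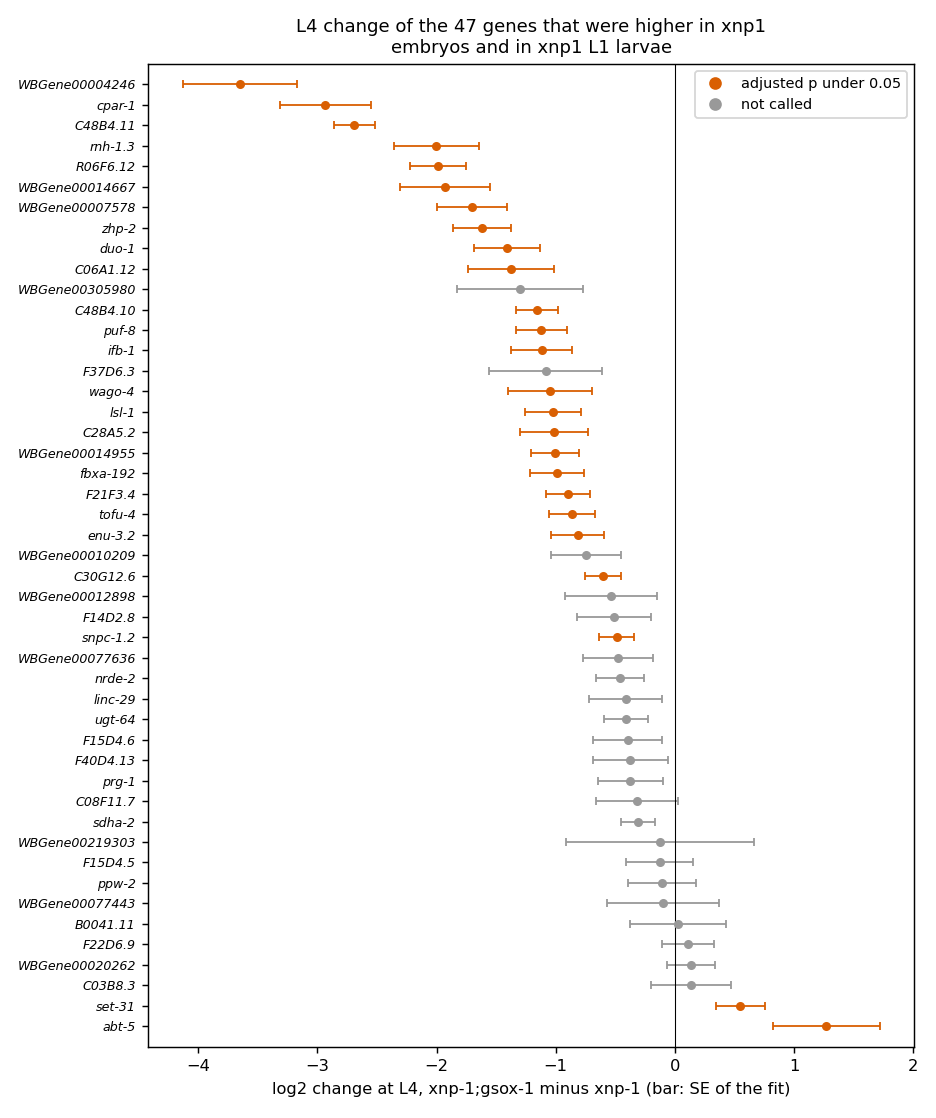
log2 change at L4 of double mutant minus xnp-1 (horizontal, points with SE of the fit) for the 47 tested genes that were higher in xnp1 embryos and xnp1 L1 larvae than in N2, ordered by the change. Orange points passed the threshold; 23 lie left of zero and 2 right of it, and the changes run between -3.65 and 1.27.

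For a view of both groups against the wild type, the double mutant differed from N2 at 182 genes (1.04%), 75 higher and 107 lower, and xnp-1 differed from N2 at 8492 genes (48.5%). The count of 182 was 44 and 61 without double mutant replicate 2 and replicate 3, 116 and 102 without xnp-1 replicate 2 and replicate 3, and 78 and 73 without N2 replicate 2 and replicate 3. The libraries labelled gsox-1 differed from N2 at 4 genes (0.0229%), with 858 genes at an unadjusted p under 0.05. The median changes of the lists are given side by side, since the comparisons share libraries. Eggshell genes had a median of -0.15 in the double mutant against N2 and of 4.39 in xnp-1 against N2, meiosis genes of 0.25 and 1.47, P granule genes of 0.05 and 1.95, and DNA damage genes of 0.13 and 1.38. Furrow collagens had medians of 0.84 and -4.31, moulting genes of -0.02 and -2.30, and vitellogenins of -5.11 and 6.23 in the same order of comparisons. The interaction of both genotypes, tested as the difference of the double mutant and xnp-1 less that of gsox-1 and N2, was called for 5826 genes (33.3%), 3007 of them positive and 2819 negative.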

How the data were processed

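RNA-seq of whole animals was read as gene counts in 12 libraries of the L4 table, 3 each of xnp-1;gsox-1, xnp-1, gsox-1 and N2, grouped by their titles. The authors deposited raw counts per gene, made with featureCounts 2.0.6 in paired mode with reverse-stranded counting and a minimum mapping quality of 10, per the file headers; without an option to count pairs, both mates of a fragment may be counted. The embryo and L1 counts came from featureCounts 2.0.1, per the file headers. FastQC, Trim Galore, STAR and SAMtools are named in the submitters' processing notes, and their versions are not given in the sources used here. Reads shared by near-identical genes are not resolved.

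Genes were kept by edgeR's filterByExpr by group (minimum count 10, minimum total 15), scaled by TMM and fitted in edgeR 4.0.16 (R 4.3.3) with a 4-group quasi-likelihood model over all 12 libraries, with the robust option and Benjamini-Hochberg adjustment over 17492 genes. SE is the log2 change divided by the square root of F. The script was tested on simulated data. Alternatives were DESeq2 1.42.0, other scalings and filters, a replicate block, a fit of the 6 libraries and leaving out each library; 2 were added after the data were seen. Named genes were the top of up to 15 per direction by size of change, among called genes with a mean log2 CPM of at least 1 and groups that did not overlap, up to 4 members of each list and 8 of the followed genes by smallest adjusted p, families of at most 6 in full, and stage and cell type markers. The members and lists were chosen with earlier results of these data known.

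Replicate numbers come from the titles. Deviations from the group means of same-numbered double mutant and xnp-1 libraries correlated at 0.271, 0.136 and 0.154. Libraries of these groups with different numbers had -0.223 to 0.113. Same-numbered double mutant and N2 libraries had 0.548, 0.319 and 0.421, and xnp-1 and N2 libraries 0.236, 0.158 and 0.151. For gsox-1 and N2 the same-numbered values were -0.0813, -0.41 and -0.262. Those of gsox-1 were -0.0265, -0.237 and -0.0141 with the double mutant and -0.000416, -0.191 and 0.0392 with xnp-1. Deviations from a mean of 3 libraries sum to zero, so such values are not independent and do not settle whether the numbers pair libraries. The fit reported had no replicate term, and the replicate block was run as an alternative. Floors (3 counts over a group) and exact 95% intervals cover counting error only.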

Additional observations from a re-analysis of the deposited data

Results flagged for a closer look

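The difference between the double mutant and xnp-1 was not the same as that between gsox-1 and N2 for 5826 genes in the test of the interaction (edgeR, Benjamini-Hochberg adjusted). For the gene gsox-1 the interaction was -1.67 on the log2 scale (edgeR adjusted p = 0.00407), and for the gene xnp-1 it was -0.94 (edgeR adjusted p = 0.0278).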

How the results depend on the processing

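The count of 7731 genes called between the double mutant and xnp-1 stayed within 1.5-fold in every alternative run; it was 8265 with replicate number as a block over all 12 libraries and 7158 in a fit of only the 6 libraries. The log2 change of xnp-1 missed the threshold in the fit of 6 libraries (-0.65, edgeR adjusted p = 0.058) and ranged from -0.88 to -0.48 when 1 library was left out. The genes called between double mutant and N2 numbered 847 by DESeq2, and 44 to 253 without 1 library. Of the genes followed from embryos and L1 larvae, 2 were higher; 1 was in the fit of 6 libraries, with and without the block, by DESeq2, with RLE size factors and with no filter, 0 to 2 without 1 library, and 4 of the list drawn with DESeq2, of which 55 were lower. The mitochondrial genes called higher were 2 in the fit of 6 libraries, 7 with the block, 8 by DESeq2, 2 with RLE size factors, 1 with no filter and 0 to 10 without 1 library; those called lower were 1 with the block in the fit of 6, 2 without the double mutant and N2 libraries numbered 1, and 0 to 2 without 1 library. The embryo-high list held no gene tested at L4; drawn at 2-fold, chosen after seeing the data, 377 were higher and 711 lower. The change of F15D4.5 ran from -0.32 to 0.17 without 1 library, positive without double mutant replicate 1, and was 0.17 without both libraries numbered 1. The cause of these moves was not tested. Among 151 named genes, 3276 of 3319 values kept direction and side of the threshold. With the block in the fit of 6 libraries set-31 was not called (0.53, edgeR adjusted p = 0.0699) and gsp-3 was (0.62, edgeR adjusted p = 0.0365); beside these and the values given in the report, the block changed no other call on a named gene. With 3 libraries a group, p-values set each difference against the spread between libraries, which the reported fit estimated over all 4 groups.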
